A study of Saccharomyces cerevisiae with 16 samples.

Results

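The transcriptional response of *ime2Δ* cells to their first 2 h in sporulation medium was read from 4 of the 16 arrays of a meiotic time course in *Saccharomyces cerevisiae*, picked by genotype and time. These were 2 arrays at 2 h and 2 arrays at 0 h of strain YGB221, and 2 arrays of WT cells (strain DSY1089) at each of the same times were set beside them. Both strains are *MAT*a/α diploids congenic with SK1, a background that sporulates fast and in near synchrony. They share *ho::LYS2*, *lys2*, *ura3*, *leu2::hisG*, and *trp1::hisG* on both homologs, together with the paired alleles *arg4-BglII* and *arg4-NspI* and the paired alleles *his4B* and *his4X*. YGB221 in addition has both copies of *IME2* replaced by *TRP1*, so that of these strains only the *ime2Δ* strain has an intact *TRP1*. Cultures were pregrown in acetate medium (YPA), washed, and resuspended in a medium with potassium acetate, a trace of raffinose, and auxotrophic supplements (SPM), and the 0 h cells were taken straight after resuspension. The 0 h sample thus stands for washed, acetate-grown cells, and each strain is 1 diploid. The paper describes taking aliquots of the resuspended cells over time, so the times of a replicate come from 1 culture.

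Budding yeast enters meiosis when *MAT*a/α diploids lack nitrogen and a fermentable carbon source. The transcription factor Ime1 is then made, binds the DNA-bound regulator Ume6, and turns the early meiotic genes from repressed to active. These genes serve premeiotic DNA replication, the programmed DNA breaks of recombination, and the synaptonemal complex that joins homologous chromosomes. Ime2, a kinase whose gene is itself an Ime1 target, acts on replication, on the later transcription factor Ndt80, and on Ime1. The same shift in medium also alters metabolism, ribosome production, and transport, in cells that do or do not enter meiosis.

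Every value below is the log2 signal of a gene's probe relative to the median of its array, so that a level of 0 is that median, and every change is the log2 (2 h/0 h) ratio. Between 6087 and 6158 of 6256 genes were well above background on the 4 *ime2Δ* arrays, and replicate arrays correlated across genes with Pearson's r of 0.994 at 2 h and 0.992 at 0 h. *IME2* was well above background on 0 of the 4 *ime2Δ* arrays and on 4 of the 4 WT arrays, and it was left out of the values below together with *TRP1*, which leaves 6254 genes. Replicates 1 and 2 lay on separate slides, and *ime2Δ* and WT cells lay in different columns of both slides, so that strain, slide column, and the *TRP1* allele cannot be told apart. The test throughout was limma, fitted to all 16 arrays, and a gene was said to have risen or fallen at a Benjamini-Hochberg adjusted p under 0.05 over the 6254 genes. According to the labels the replicates are separate samples. With 2 arrays per group, the precision of every value is limited.

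Without *IME2*, 2484 genes changed in the first 2 h. Of these, 1102 rose (17.6% of all genes) and 1382 fell (22.1%), and every one of them moved the same way in both replicates. The change was at least 4-fold for 89 genes that rose and for 118 that fell. The genes that rose most served meiotic recombination and sulfate uptake, and the lists with the lowest medians included those of ribosome assembly, purine synthesis, translation factors, and the cell wall. With 1 of the 4 arrays left out in turn, between 1749 and 1886 genes passed, and 1323 of the 2484 passed in all 4 of these fits. The balance of rising and falling genes depends on the scaling. When arrays were scaled to their 75th percentile, the median change of all genes moved by 0.26, with 1803 rising and 895 falling genes (66.8% rising, against 44.4% relative to the median), so changes are relative to the array median. For the lists in which 0 genes rose or 0 fell by limma, the count in that direction was also 0 at an unadjusted p under 0.05, except for 1 cytosolic ribosomal protein gene with a higher and 1 vacuolar protease gene with a lower value.

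**Figure D1:**
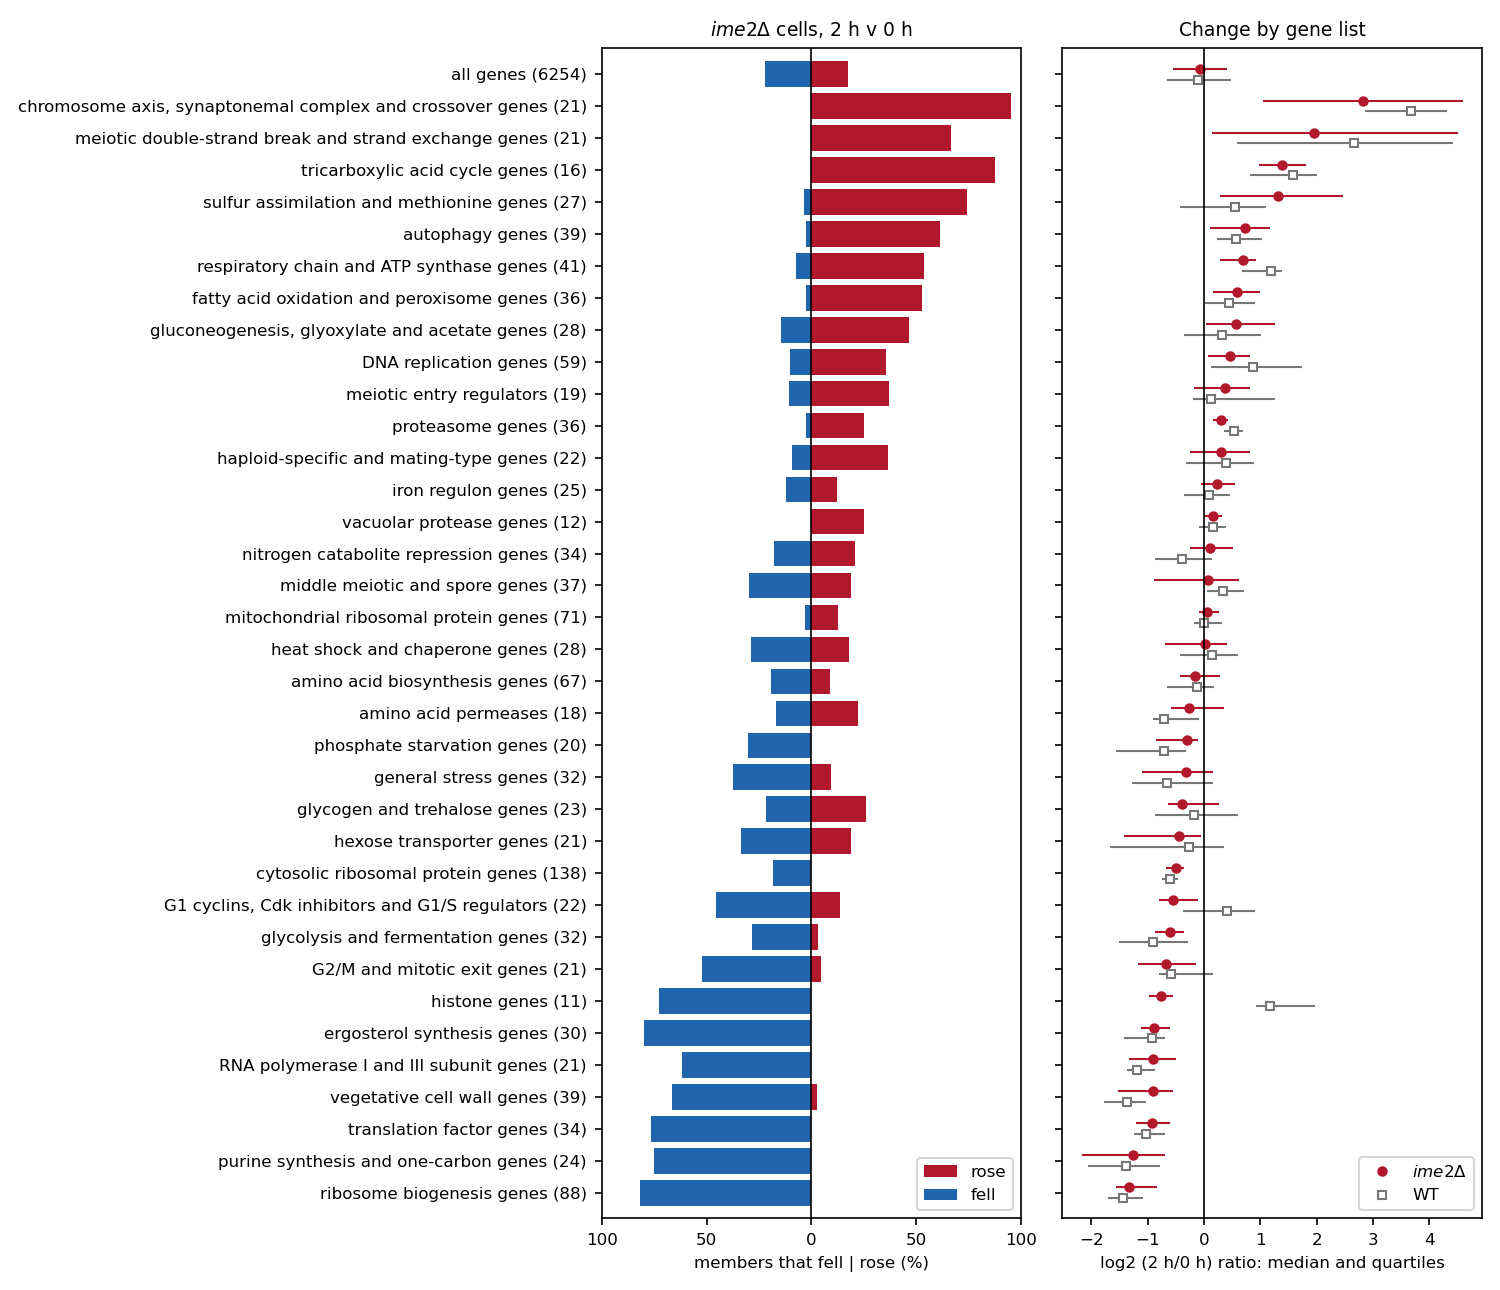
Left, percentage of the members of each gene list that rose (to the right of 0) or fell (to the left of 0) in *ime2Δ* cells between 0 and 2 h, with the share over all genes on top. Right, median log2 (2 h/0 h) ratio of each list in *ime2Δ* cells (filled circle, above) and WT cells (open square, below), with lines for the quartiles over the members. The chromosome axis list stands farthest to the right, with a median of 2.82 in *ime2Δ* cells, and the ribosome biogenesis list farthest to the left at -1.33.

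Most early recombination genes rose without *IME2*, many of them among the largest changes on the array. Of 21 genes for meiotic double-strand breaks and strand exchange, 14 rose and 0 fell, with a median change of 1.96, where 17.6% of all genes rose, 22.1% fell, and the median of all genes was -0.06. 11 of the 14 passed with each of the 4 arrays left out. *MEI5* (YPL121C), whose product forms with Sae3 a complex that loads the recombinase Dmc1, had levels of 0.69 and 1.04 at 2 h, against -6.35 and -6.10 at 0 h. Both 2 h arrays lay above the array median and both 0 h arrays far below it, a change of 7.09 (standard error 0.35, limma adjusted p = 8.9e-08), the largest rise of any gene. *HOP2* (YGL033W), which acts with Mnd1 to help Dmc1 find the homolog, had levels of 0.46 and 0.83 at 2 h, against -6.07 and -5.77 at 0 h, and rose by 6.57 (standard error 0.35). *DMC1* (YER179W), the meiosis-specific recombinase itself, had levels of 4.17 and 4.14 at 2 h, against -0.77 and -0.79 at 0 h, and rose by 4.94 (standard error 0.24, limma adjusted p = 8.9e-08). The 2 h arrays of *DMC1* lay more than 4 log2 units above its 0 h arrays.

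Most genes of the complex that makes the break with Spo11 rose too. *SPO11* (YHL022C), the break-making transesterase, had levels of -2.07 and -2.12 at 2 h, against -6.10 and -5.22 at 0 h, and rose by 3.57 (standard error 0.43). Its partners *REC114*, *REC104*, *REC102*, and *MEI4* rose by 4.51, 3.47, 3.22, and 1.96. *REC107*, also called *MER2* and needed for the same breaks, had levels of -1.43 and -1.50 at 2 h, against -1.31 and -1.35 at 0 h, and the 0 h and 2 h arrays differed by -0.14 (limma adjusted p = 0.544). In WT cells *REC107* rose by 1.00, and its change was lower in *ime2Δ* cells by a log2 difference of -1.14 (limma adjusted p = 0.0211), a call that was lost in 6 of the 8 fits that leave out 1 array of either strain (adjusted p between 0.0392 and 0.114), that is in all but those without replicate 2 of *ime2Δ* cells at 0 h or replicate 1 of WT cells at 2 h. *REC107* pre-mRNA is spliced with the help of *MER1*, and *MER1* (YNL210W) rose by 4.53 in *ime2Δ* cells. *SAE3* was well above background on both 2 h arrays and on 1 of the 2 arrays at 0 h, with levels of -4.60 and -4.29 at 2 h, against -10.90 and -8.61 at 0 h.

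Genes of this list that also repair DNA in dividing cells moved little. *RAD52*, *RAD54*, and *SAE2* changed by 0.07, -0.13, and 0.14, and none of them passed. *RAD50* and *XRS2*, subunits of the nuclease complex that processes the breaks, rose by 0.73 and 0.57, and *RDH54* by 0.64. The calls of *RAD50* and *XRS2* were lost with any 1 of the 4 arrays left out, and that of *RDH54* without replicate 1 at 0 h, where its change was 0.40, or at 2 h, or with only the compared groups fitted. That of *XRS2* was also lost by quantile scaling and after a model-based background correction (normexp).

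**Figure D2:**
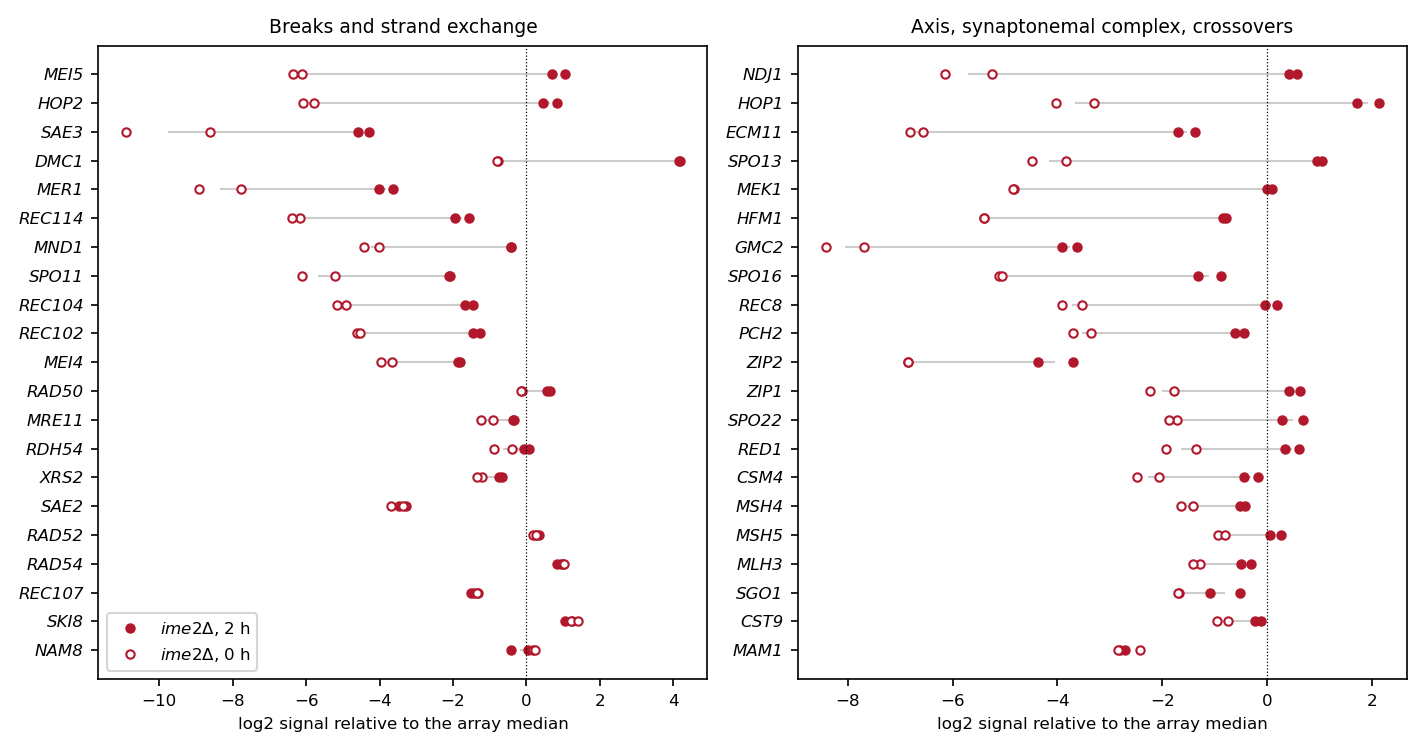
Log2 signal relative to the array median on the 2 arrays at 2 h (filled circles) and the 2 arrays at 0 h (open circles) of *ime2Δ* cells, for the 21 genes of meiotic breaks and strand exchange (left) and the 21 genes of the chromosome axis, synaptonemal complex, and crossovers (right), each sorted by its change. At the top of both panels the 2 h and 0 h arrays are apart by several log2 units, as for *MEI5* with a change of 7.09, and at the bottom they lie together.

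Genes of the chromosome axis, the synaptonemal complex, and the crossover machinery rose with 1 exception. Of 21 members 20 rose and 0 fell, the median change was 2.82, and 17 of the 20 passed with each of the 4 arrays left out. *HOP1* (YIL072W), an axis protein that signals breaks, had levels of 1.71 and 2.15 at 2 h, against -4.02 and -3.31 at 0 h, and rose by 5.59 (standard error 0.33, limma adjusted p = 2.75e-07). Its partners in the axis and in that signal, *MEK1*, *REC8*, and *RED1*, rose by 4.89, 3.80, and 2.12. *NDJ1* (YOL104C), which ties telomeres to the nuclear envelope in prophase, had levels of 0.42 and 0.57 at 2 h, against -6.15 and -5.24 at 0 h, and rose by 6.20 (standard error 0.42). The 2 h levels of *HOP1*, *MEK1*, and *NDJ1* were all above the highest 0 h level of the same gene by more than 4 log2 units.

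Among the parts of the synaptonemal complex, *ZIP1*, the protein that spans its width, rose by 2.53, and *ECM11* and *GMC2* of its central region rose by 5.17 and 4.29. The crossover helicase *HFM1* (also *MER3*) rose by 4.59, and *SPO16*, *ZIP2*, and *SPO22* (also *ZIP4*), which act in the same pathway, rose by 3.99, 2.82, and 2.29. *SPO13*, which keeps sister chromatids together in the first division, had levels of 0.95 and 1.06 at 2 h, against -4.49 and -3.84 at 0 h, and rose by 5.17. The exception was *MAM1*, which encodes a monopolin subunit used at the first division, changed by -0.11, and did not pass.

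For 4 members of the axis and crossover list the rise was smaller than in WT cells, where 2.46% of all genes passed in that direction. *MSH5* (YDL154W), which with Msh4 stabilizes crossover intermediates, had levels of 0.05 and 0.27 at 2 h, against -0.93 and -0.79 at 0 h in *ime2Δ* cells, and of 1.92 and 2.52 at 2 h and -0.79 and -0.71 at 0 h in WT cells. It rose by 1.02 in *ime2Δ* cells and by 2.97 in WT cells, so that the log2 difference was -1.95 (limma adjusted p = 0.00862, standard error 0.34), which passed with each of the 8 arrays left out. *MSH4*, *CSM4*, and *MLH3* had differences of -1.81, -1.55, and -1.01 (limma adjusted p = 0.0250, 0.0295, and 0.0265), and these calls were lost in 5, 6, and 7 of the 8 fits without 1 array (adjusted p up to 0.131, 0.160, and 0.124). All 3 were lost without replicate 1 of *ime2Δ* cells at either time, replicate 2 of *ime2Δ* cells at 2 h, replicate 1 of WT cells at 0 h, or replicate 2 of WT cells at 2 h. The remaining members did not pass in this comparison, and their log2 differences ranged from -1.48 for *ZIP2* to 1.17 for *HOP1*. With the replicate number as a block, those of *SGO1* (-0.88, adjusted p = 0.0484) and *SPO22* (-1.38, adjusted p = 0.0353) also passed, as did that of *MEI5*, whose rise was larger in *ime2Δ* cells by 1.95 (adjusted p = 0.0314, against 0.0528 without the block).

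The regulators that open the program moved less than its targets. Of 19 regulators of meiotic entry 7 rose and 2 fell. *IME1* (YJR094C), the master activator, already stood at 3.66 and 4.49 at 0 h and was at 4.54 and 4.39 at 2 h. The arrays of both times overlapped, and the change of 0.39 did not pass (limma adjusted p = 0.177), although it passed without replicate 2 at 0 h and under scaling to the 75th percentile or by quantiles. *UME6* (YDR207C), its DNA-bound partner, had levels of -0.60 and -0.79 at 2 h, against -1.78 and -2.26 at 0 h, and rose by 1.33 (standard error 0.23, limma adjusted p = 0.000814).

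The largest rises in this list belonged to RNA regulators. *SLZ1* (YNL196C), a subunit of the complex that methylates mRNA in meiosis, had levels of 1.67 and 1.62 at 2 h, against -1.71 and -1.98 at 0 h, and rose by 3.49, and *IME4*, its catalytic subunit, rose by 0.94. The third subunit, *MUM2*, changed by 0.40 (limma adjusted p = 0.0799) and passed under either other scaling. *RIM4* (YHL024W), which holds back translation of middle meiotic mRNAs, had levels of 4.20 and 3.86 at 2 h, against 1.32 and 1.35 at 0 h, and rose by 2.69. *RIM11* and *MCK1*, kinases of the GSK-3 family that act on Ume6, rose by 0.52 and 0.70, whereas their relative *MRK1* fell, with a change of -1.52. *RME1*, a repressor of *IME1* in haploid cells, rose by 1.31, and *SUM1*, a repressor of middle genes, changed by -0.81 and fell. *NDT80*, the activator of middle genes, had levels of -0.92 and -1.17 at 2 h, against -0.85 and -1.83 at 0 h, and did not pass (limma adjusted p = 0.419), although it passed without replicate 1 at 0 h, with a change of 0.787. Between the strains, the change of 0 regulators differed by limma, and that of 1 at an unadjusted p under 0.05. The calls of *MCK1*, *RIM11* (0.34 without replicate 1 at 2 h), and *SUM1* were lost with 2 or more of the 4 arrays left out, that of *RIM11* also with only the compared groups fitted and that of *SUM1* under either other scaling, and the list then kept between 5 and 6 rising and between 1 and 3 falling genes.

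Middle meiotic and spore genes rose and fell in *ime2Δ* cells at shares near those of all genes. Of 37 members 7 rose (18.9%, against 17.6% of all genes) and 11 fell (29.7%, against 22.1%), and the median change was 0.07 (-0.11 under quantile scaling). With arrays scaled to the 75th percentile 13 rose and 10 fell. Without replicate 1 at 2 h, 4 rose. In WT cells 13 members rose and 4 fell, where 22.2% of all genes rose and 27.2% fell. The difference between the strains passed for 3 members, all with the lower change in *ime2Δ* cells, where 2.46% of all genes passed in that direction. The members that rose most in *ime2Δ* cells were *AMA1*, which directs the anaphase-promoting complex in meiosis, by 2.93, and *MPC54*, a part of the meiotic spindle pole body, by 2.08. *SPS100* (YHR139C), a gene of spore wall maturation, had levels of -2.58 and -2.53 at 2 h, against 2.08 and 3.38 at 0 h. Both 0 h arrays lay far above both 2 h arrays, and the change of -5.28 (standard error 0.38, limma adjusted p = 1.3e-06) was the lowest of all genes. In WT cells *SPS100* changed by -4.85. *OSW2*, of the outer spore wall, fell with a change of -2.51. *SPO77* was well above background on 1 of the 2 arrays at 2 h, with levels of -9.70 and -9.56 at 2 h, against -7.11 and -6.89 at 0 h. It changed by 0.19 in WT cells, and the difference was -2.83 (limma adjusted p = 0.00129), where 1 of the 2 *ime2Δ* levels at 2 h was not well above background.

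Genes of sulfate assimilation rose together. Cells take up sulfate, activate it with ATP, reduce it to sulfide, and build homocysteine, methionine, and S-adenosylmethionine. Of 27 members of the sulfur and methionine list 20 rose and 1 fell, with a median change of 1.32, and 15 of the 20 passed with each array left out. *SUL1* (YBR294W), a sulfate permease, had levels of 1.64 and 1.92 at 2 h, against -2.88 and -2.96 at 0 h, and rose by 4.70 (standard error 0.27, limma adjusted p = 2.04e-07). *MET3* (YJR010W), ATP sulfurylase, had levels of 2.67 and 2.88 at 2 h, against -0.33 and -0.66 at 0 h, and rose by 3.27 (standard error 0.23). Both genes stood below the array median in every 0 h array and above it in every 2 h array. *MET14*, the next kinase of the pathway, rose by 3.30, *MET10*, a sulfite reductase subunit, by 2.71, and *MET32*, a zinc finger activator of the pathway, by 2.74. *MMP1* and, of the permease list, *SAM3*, permeases for S-methylmethionine and S-adenosylmethionine, rose by 1.32 and 1.71. The member that fell, *SAM1*, encodes an S-adenosylmethionine synthetase that uses methionine, changed by -0.80, and lost its call with any 1 of the 4 arrays left out and under either other scaling.

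In WT cells fewer of these genes rose (13 of 27, with 6 falling, where 22.2% of all genes rose and 27.2% fell) and the median change was 0.55. The difference between the strains passed for 4 of 27 members, all with the larger rise in *ime2Δ* cells, where 0.863% of all genes passed in that direction. *MET3* was at 0.65 and 0.71 at 2 h and -0.26 and -1.06 at 0 h in WT cells. The 0 h arrays of both strains overlapped, both *ime2Δ* arrays at 2 h lay above both WT arrays, and the difference of 1.92 (standard error 0.33, limma adjusted p = 0.00688) passed with each of the 8 arrays left out. Those of *MET10* (1.61, adjusted p = 0.00830) and *MET32* (1.76, adjusted p = 0.0216) were lost without replicate 1 of *ime2Δ* cells at 0 h, where *MET10* had an adjusted p of 0.0530. That of *MET32* was also lost without replicate 2 of *ime2Δ* cells at 2 h, replicate 1 of WT cells at 0 h, or replicate 2 of WT cells at 2 h (adjusted p up to 0.0960), and with only the compared groups fitted. With the replicate number as a block, the differences of *MET14* (2.19, adjusted p = 0.00878), *SUL1* (1.42, adjusted p = 0.0449), and *MMP1* (1.41, adjusted p = 0.0445) passed too.

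Genes held down by good nitrogen sources rose and fell at about the share of all genes. Of 34 genes under nitrogen catabolite repression 7 rose (20.6%, against 17.6% of all genes) and 6 fell (17.6%, against 22.1%), and scaling to the 75th percentile gave 12 and 5. In WT cells 5 rose and 15 fell. *DAL3* (YIR032C), of allantoin breakdown, had levels of -0.02 and -0.34 at 2 h, against -2.48 and -2.52 at 0 h, and rose by 2.32, and *UGA4*, the permease for γ-aminobutyrate, rose by 2.01. *PUT1* (YLR142W), the first enzyme of proline breakdown, had levels of 1.79 and 0.67 at 2 h, against 5.05 and 4.87 at 0 h, and changed by -3.73, and the proline permease *PUT4* changed by -2.06, so that both fell. *CAR2*, the ornithine transaminase of arginine breakdown, rose by 1.32. *DAL3* rose more than in WT cells, where its change was 0.65, and the difference of 1.67 (limma adjusted p = 0.0216) was lost without replicate 1 of either *ime2Δ* or WT cells at either time (adjusted p up to 0.104).

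Amino acid transport and synthesis showed single genes rather than a common direction. Of 18 amino acid permeases 4 rose (22.2%, against 17.6% of all genes) and 3 fell (16.7%, against 22.1%). Fewer fell without replicate 2 at 2 h, and 1 fell under either other scaling. In WT cells 0 permeases rose and 7 fell, where 22.2% of all genes rose and 27.2% fell. *AGP3* (YFL055W), a permease of broad range, was the 1 member for which the difference between the strains passed. Its levels were -0.62 and -0.73 at 2 h, against -1.94 and -1.67 at 0 h in *ime2Δ* cells, and -2.03 and -2.12 at 2 h and -1.05 and -1.45 at 0 h in WT cells. It rose by 1.13 in *ime2Δ* cells and fell in WT cells with a change of -0.82, and the difference of 1.95 (standard error 0.25, limma adjusted p = 0.00129) passed with each of the 8 arrays left out. The histidine permease *HIP1* fell with a change of -1.25. Of 67 genes of amino acid synthesis 6 rose (9.0%, against 17.6% of all genes) and 13 fell (19.4%, against 22.1%). Fewer fell without replicate 1 at 2 h or replicate 2 at either time. Scaling to the 75th percentile gave 16 rising and 6 falling genes, and quantile scaling 13 and 6, so the balance turns with the scaling. *AAT2*, cytosolic aspartate aminotransferase, rose by 1.72, and *ARG2*, the first step of arginine synthesis, rose by 1.27. *SHM2*, cytosolic serine hydroxymethyltransferase, and *SER3*, which starts serine synthesis, fell with changes of -2.54 and -2.18.

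Purine and one-carbon genes fell together. Of 24 members 0 rose and 18 fell, with a median change of -1.25, and 17 of the 18 passed with each of the 4 arrays left out. *ADE13* (YLR359W), adenylosuccinate lyase, had levels of 1.32 and 1.64 at 2 h, against 4.30 and 4.18 at 0 h, and changed by -2.76 (standard error 0.20, limma adjusted p = 1.15e-06). All 4 values were above the array median, and the 2 h arrays lay more than 2 log2 units below the 0 h arrays. *ADE17*, *MTD1*, and *ADE2* changed by -2.73, -2.65, and -2.26. *URA1*, which makes orotate in pyrimidine synthesis, fell by 10.9-fold, with levels of 0.27 and 0.32 at 2 h, against 3.70 and 3.78 at 0 h. The changes of *ADE13* and *URA1* in WT cells were -2.79 and -3.77.

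Phosphate genes fell or did not pass. Of 20 members 0 rose and 6 fell (30.0%, against 22.1% of all genes). *PHO5* (YBR093C), the main repressible acid phosphatase, had levels of 1.45 and 1.86 at 2 h, against 3.81 and 4.19 at 0 h, and changed by -2.34. Its homologs *PHO3*, *PHO11*, and *PHO12* changed by -2.38, -1.68, and -1.80, and near-identical copies such as *PHO11* and *PHO12* can share signal on these probes. In the iron list 3 of 25 rose and 3 fell, or 8 rose under scaling to the 75th percentile and 6 by quantiles. The iron reductases *FRE2* and *FRE4* fell with changes of -3.00 and -1.73, while *FRE3* and the mRNA decay factor *TIS11* rose by 1.05 and 1.36. Both of these rises were lost with 1 or 2 of the 4 arrays left out, and 1 iron gene rose without replicate 1 at either time or replicate 2 at 2 h, against 5 without replicate 2 at 0 h.

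Genes of respiration and the tricarboxylic acid cycle rose in cells that had already been grown on acetate. Of 16 cycle genes 14 rose and 0 fell, with a median change of 1.38, and 12 of the 14 passed with each array left out. *IDH1* (YNL037C), a subunit of isocitrate dehydrogenase, had levels of 4.96 and 4.83 at 2 h, against 3.06 and 2.17 at 0 h, and rose by 2.28 (standard error 0.29, limma adjusted p = 9.38e-05). *IDH2*, aconitase (*ACO1*), and mitochondrial citrate synthase (*CIT1*) rose by 2.06, 1.97, and 1.75, all from 0 h levels above the array median. Of 41 genes of the respiratory chain and ATP synthase 22 rose and 3 fell, and without replicate 2 at 2 h, 14 rose. *SDH3* and *SDH4* of complex II rose by 2.09 and 1.64, and *COX6* of complex IV by 1.51. *CYC7*, the cytochrome c isoform of low oxygen and stress, fell with a change of -2.18. Mitochondrial ribosomal proteins moved little, with 9 of 71 rising, 2 falling, and a median change of 0.06, and between 3 and 5 rose with 1 of the 4 arrays left out.

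The list for gluconeogenesis, the glyoxylate cycle, and acetate had 13 of 28 members that rose and 4 that fell, or 2 that fell without replicate 1 at 0 h or replicate 2 at 2 h. Its largest rises were in genes of the mitochondrial methylcitrate pathway for propionate and of carnitine shuttling. *ICL2* (YPR006C), 2-methylisocitrate lyase, had levels of 3.77 and 3.38 at 2 h, against 1.28 and 0.61 at 0 h, and rose by 2.63. *CIT3* and *PDH1* of the same pathway rose by 2.17 and 1.95, and the carnitine acetyltransferases *CAT2* and *YAT2* by 2.09 and 1.67. The transporter *ATO2* changed by -1.13 and fell, a call that was lost without replicate 1 at 0 h or replicate 2 at 2 h (-0.63 without the second of these). Of 36 genes of fatty acid oxidation and peroxisomes 19 rose and 1 fell, and without replicate 1 at 2 h, 11 rose. The β-oxidation enzymes *FOX2*, *POX1*, and *POT1* rose by 1.95, 1.62, and 1.54.

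Glycolytic and fermentative genes fell at a share near that of all genes, with a lower median. Of 32 members 1 rose (3.1%, against 17.6% of all genes) and 9 fell (28.1%, against 22.1%). The median change was -0.60, where that of all genes was -0.06. With the replicate number as a block, 16 fell, without replicate 2 at 2 h, 6, and under scaling to the 75th percentile, 5. *HXK2*, the main glucose-phosphorylating hexokinase, had levels of 0.62 and 0.87 at 2 h, against 3.08 and 2.96 at 0 h, and changed by -2.27. *PDC6*, a minor pyruvate decarboxylase, and *TDH1*, a glyceraldehyde-3-phosphate dehydrogenase, changed by -2.78 and -1.89. *PFK26*, which makes the glycolytic activator fructose 2,6-bisphosphate, was the member that rose, by 1.04. Its change in WT cells was -0.27, and the difference of 1.31 (limma adjusted p = 0.0287) was lost in 6 of the 8 fits without 1 array (adjusted p between 0.0312 and 0.139), and was kept only without replicate 2 of *ime2Δ* cells at 0 h or at 2 h. Of 21 hexose transporter genes 4 rose and 7 fell, and without replicate 1 at 2 h, 2 rose. *HXT5*, a transporter of slow-growing cells, had levels of 4.24 and 4.41 at 2 h, against 2.43 and 2.75 at 0 h, and rose by 1.74. *HXT13*, *HXT15*, *HXT16*, and *HXT17*, whose near-identical sequences can share signal, fell with changes between -2.52 and -2.19. Of 23 genes of glycogen and trehalose 6 rose (26.1%, against 17.6% of all genes) and 5 fell (21.7%, against 22.1%). Glycogenin (*GLG2*) and the phosphatase regulator *PIG1* rose by 1.85 and 2.08, and the branching enzyme *GLC3* and the phosphatase regulator *GAC1* changed by -1.33 and -1.32. The falling genes of the storage list numbered 2 without replicate 1 at 0 h.

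Genes of ribosome assembly fell together in *ime2Δ* cells. Of 88 ribosome biogenesis genes 0 rose and 72 fell, the median change was -1.33, and 55 of the 72 passed with each of the 4 arrays left out. All 88 changes were below 0. *DBP2* (YNL112W), an RNA helicase, had levels of 1.31 and 1.59 at 2 h, against 3.83 and 4.32 at 0 h, and changed by -2.63 (standard error 0.34, limma adjusted p = 0.000103). *GAR1* of the pseudouridylation particles, *RRP5*, and *ERB1* changed by -2.15, -2.10, and -2.02. Of 21 subunits of RNA polymerases I and III 13 fell and 0 rose. The largest subunits of polymerase I, *RPA190* and *RPA135*, changed by -1.59 and -1.44. Of 34 translation factors 26 fell and 0 rose, with a median of -0.92, among them *TEF4*, *SUI2*, and the eIF3 subunits *PRT1* and *RPG1* with changes of -1.60, -1.51, -1.38, and -1.36. In WT cells the medians of the biogenesis, polymerase, and translation factor lists were -1.44, -1.20, and -1.03, and the difference between the strains passed for 1 gene of these 3 lists.

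The ribosomal proteins themselves moved less. Of 138 cytosolic ribosomal protein genes 25 fell and 0 rose, a share of 18.1% falling, where 22.1% of all genes fell, and the median change was -0.50. The count rests on single arrays, since 4 fell without replicate 1 at 2 h, 6 without replicate 2 at 0 h, and 15 without replicate 1 at 0 h. Scaling to the 75th percentile left 5. The largest changes were those of *RPL9A* (-1.55), *RPP1A* (-1.22), and *RPL12A* (-1.17), and paralogous pairs can share signal.

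Genes of sterol and wall synthesis fell as well. Of 30 ergosterol genes 24 fell and 0 rose, with a median change of -0.88, and without replicate 1 at 2 h or replicate 2 at 0 h, 14 fell, as did 14 under scaling to the 75th percentile and 13 by quantiles. *ERG1*, squalene epoxidase, *IDI1*, isopentenyl diphosphate isomerase, and *ERG9*, squalene synthase, changed by -1.45, -1.39, and -1.32. Of 39 genes of the vegetative cell wall 26 fell and 1 rose, with a median of -0.91, and 18 of the 26 passed with each array left out. *CIS3* (YJL158C), a covalently linked wall protein, had levels of 2.44 and 1.76 at 2 h, against 4.50 and 4.70 at 0 h, and changed by -2.50, and the glucan-chitin crosslinker *CRH1* changed by -1.81. *PIR3*, a relative of *CIS3*, went the other way, with levels of 4.70 and 4.50 at 2 h, against 3.37 and 4.21 at 0 h in *ime2Δ* cells, and of 3.34 and 2.86 at 2 h and 4.59 and 4.47 at 0 h in WT cells. Its rise of 0.82 was 0.40 without replicate 1 at 0 h and 1.24 without replicate 2 at 0 h, and was lost without replicate 1 at 0 h, without either replicate at 2 h, and with only the compared groups fitted, and in WT cells *PIR3* fell, with a change of -1.43. The difference of 2.24 (limma adjusted p = 0.00468) passed with each of the 8 arrays left out.

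Autophagy genes rose, and more genes of the general stress response fell than rose. Of 39 autophagy genes 24 rose and 1 fell, with a median of 0.73, and 19 of the 24 passed with each array left out. *ATG40* (YOR152C), a receptor that sends endoplasmic reticulum to the vacuole, had levels of 0.09 and -0.23 at 2 h, against -2.03 and -1.81 at 0 h, and rose by 1.85 (standard error 0.20). *ATG23*, *ATG34*, a cargo receptor, and *ATG10*, of the conjugation system, rose by 1.71, 1.66, and 1.51. The mitophagy receptor *ATG32* fell, with a change of -0.67 whose call was lost with any 1 of the 4 arrays left out and under either other scaling. In the vacuolar protease list 3 of 12 rose, and *LAP3*, an aminopeptidase, rose by 0.92. The others that rose were carboxypeptidase Y (*PRC1*, 0.62, and 0.37 without replicate 2 at 0 h) and the proteinase A inhibitor *PAI3* (1.23), and each lost its call with 3 of the 4 arrays left out in turn. Of 36 proteasome genes 9 rose and 1 fell, but 1 rose without replicate 1 at 2 h and 3 without replicate 1 at 0 h or replicate 2 at 2 h, and 21 rose under scaling to the 75th percentile and 22 by quantiles. The assembly factor *UMP1* rose by 0.80, and the gene that fell was *RPN4*, the activator of proteasome genes, which changed by -1.41.

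Of 32 genes of the general stress response 3 rose (9.4%, against 17.6% of all genes) and 12 fell (37.5%, against 22.1%). *CTT1* (YGR088W), cytosolic catalase, had levels of -2.14 and -2.47 at 2 h, against 0.01 and 0.33 at 0 h, and changed by -2.48 (standard error 0.33, limma adjusted p = 0.000118). *RTC3*, *SPI1*, and *GRE2* also fell, with changes of -2.30, -2.30, and -1.76. Of 28 heat shock and chaperone genes 5 rose (17.9%, against 17.6% of all genes) and 8 fell (28.6%, against 22.1%). Under scaling to the 75th percentile 11 rose and 6 fell, and by quantiles 10 rose and 4 fell. The ribosome-bound Hsp70 genes *SSB1* and *SSB2*, which are near-identical, fell with changes of -1.49 and -1.02, the second lost without replicate 1 at 2 h or by quantile scaling, and *SSA3*, an inducible Hsp70, rose by 1.57. The rising genes of the chaperone list numbered 3 and the falling ones 5 without replicate 1 at 2 h.

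DNA replication genes rose in part, and 3 of the 4 ribonucleotide reductase genes fell in both strains. Of 59 replication genes 21 rose and 6 fell in *ime2Δ* cells, with a median of 0.46, and in WT cells 35 rose and 5 fell, with a median of 0.86. The difference between the strains passed for 9 members, all with the lower change in *ime2Δ* cells, where 2.46% of all genes passed in that direction. *POL2* (YNL262W), a replicative polymerase, had levels of 0.70 and 0.62 at 2 h, against -1.08 and -1.84 at 0 h, and rose by 2.12, and *RFA3*, of the single-strand binding complex, rose by 2.25. The differences of these genes from WT cells, -0.71 and -1.03, did not pass. *RNR1* (YER070W), the main large subunit of ribonucleotide reductase, had levels of 0.00 and 0.04 at 2 h, against 0.78 and 0.72 at 0 h in *ime2Δ* cells, and of 3.37 and 3.19 at 2 h and 0.79 and 0.88 at 0 h in WT cells. The 0 h arrays of both strains lay close together, and both WT arrays at 2 h lay more than 3 log2 units above both *ime2Δ* arrays. *RNR1* changed by -0.73 in *ime2Δ* cells and rose by 2.45 in WT cells. The fall was lost with any 1 of the 4 arrays left out, under scaling to the 75th percentile, and after normexp. The difference of -3.18 (standard error 0.32, limma adjusted p = 0.000242) passed with each of the 8 arrays left out. *RNR2*, *RNR4*, and *RNR3* fell in both strains, with changes of -2.30, -1.80, and -3.06 in *ime2Δ* cells and of -2.09, -2.30, and -2.56 in WT cells. The falling replication genes numbered 3 with any 1 of the 4 *ime2Δ* arrays left out or under scaling to the 75th percentile.

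Histone genes fell in *ime2Δ* cells and rose in WT cells. Of 11 histone genes 8 fell and 0 rose in *ime2Δ* cells, with a median of -0.77, and 11 rose in WT cells, with a median of 1.17. By quantile scaling 4 fell in *ime2Δ* cells, without *HHT1*. The difference passed for 9 of them. *HTA2* (YBL003C), for histone H2A, had levels of 1.69 and 1.95 at 2 h, against 2.88 and 2.73 at 0 h in *ime2Δ* cells, and of 4.43 and 4.55 at 2 h and 2.54 and 2.38 at 0 h in WT cells. Its changes of -0.98 and 2.03 differed by -3.02 (standard error 0.23, limma adjusted p = 1.75e-05), and *HHF1*, *HHF2*, and *HHT1* had differences of -2.60, -2.85, and -1.71. Near-identical histone copies can share signal, so these genes are not separate measurements.

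**Figure D3:**
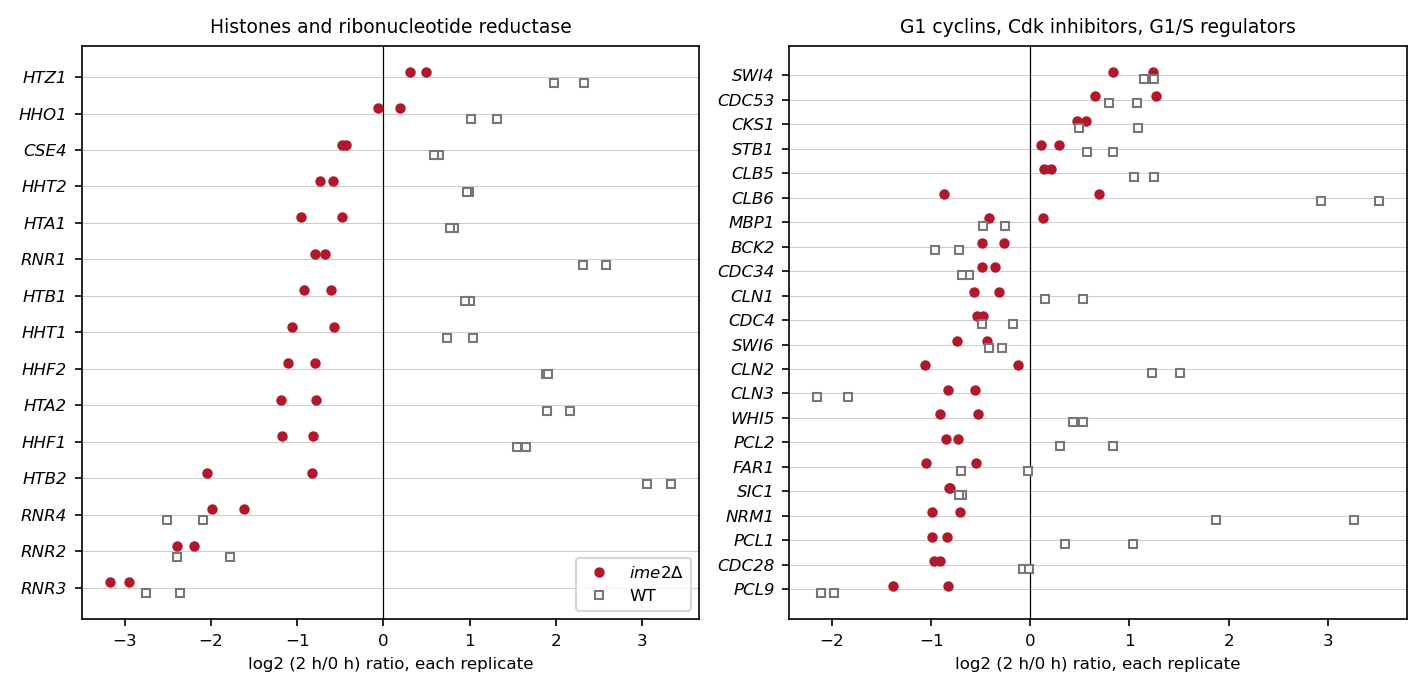
Log2 (2 h/0 h) ratio in each replicate of *ime2Δ* cells (filled circles) and WT cells (open squares) for histone and ribonucleotide reductase genes (left) and for G1 cyclins, Cdk inhibitors, and G1/S regulators (right), sorted by the *ime2Δ* change. For *RNR1* and most histone genes the WT points lie to the right of 0 and the *ime2Δ* points to the left of it, as for *HTA2* with changes of -0.98 and 2.03, while *RNR2*, *RNR3*, and *RNR4* lie to the left of 0 in both strains.

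The regulators of the G1/S step were mostly lower or did not pass in *ime2Δ* cells. Of 22 genes 3 rose and 10 fell, with a median of -0.55, but without replicate 1 at 0 h or replicate 2 at 2 h 3 fell, under scaling to the 75th percentile 3 fell, by quantiles 6 fell, and without replicate 2 at either time, 1 rose. In WT cells 9 rose and 5 fell, with a median of 0.41. The G1 cyclin genes *CLN1*, *CLN2*, and *CLN3* changed by -0.44, -0.59, and -0.69, and none of them passed, although *CLN1* passed without replicate 1 at 2 h and *CLN3* with only the compared groups fitted. *CLN2* (YPL256C) had levels of -4.33 and -3.58 at 2 h, against -3.26 and -3.46 at 0 h in *ime2Δ* cells, and of -3.32 and -3.03 at 2 h and -4.55 and -4.53 at 0 h in WT cells, and its difference of -1.96 did not pass (adjusted p = 0.0707), but passed with the replicate number as a block (adjusted p = 0.0138), by quantile scaling, or with only the compared groups fitted. The S phase cyclin *CLB5* changed by 0.17 and *CLB6* by -0.09, neither past the threshold, although *CLB6* passed without replicate 2 at 0 h. *CLB6* (YGR109C) had levels of -6.15 and -5.92 at 2 h, against -5.28 and -6.61 at 0 h, and rose in WT cells by 3.22, and the difference of -3.31 (limma adjusted p = 0.00189) passed with each of the 8 arrays left out. The kinase gene *CDC28* fell with a change of -0.94, and *SWI4*, a subunit of the G1/S activator SBF, rose by 1.04, a call that was lost without replicate 2 at either time. The Cdk inhibitors *SIC1* and *FAR1* changed by -0.81 and -0.80, past the threshold with all arrays. Both calls were lost in 2 or more of the fits without 1 array and under scaling to the 75th percentile. That of *SIC1* was also lost by quantile scaling and after normexp. Of 21 genes of G2/M and mitotic exit 11 fell and 1 rose, and without replicate 2 at 2 h, 5 fell. *CLB2* and *CLB1*, the mitotic cyclins, changed by -1.36 and -1.41, and *CHS2*, which makes the septum, by -1.45.

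Genes that *MAT*a/α cells keep off served as a check on the cell type. Of 22 haploid-specific and mating-type genes 8 rose and 2 fell in *ime2Δ* cells, and with any 1 of the 4 arrays left out 5 rose. Besides *RME1* these were led by *MFA1*, for the a-factor precursor, with levels of -0.71 and -0.61 at 2 h, against -2.52 and -2.16 at 0 h, and a rise of 1.68, *AXL1*, with a rise of 1.66, and *FUS3*, the mating kinase, with a rise of 1.16. *STE18*, of the pheromone G protein, fell with a change of -1.04, a call that was lost without replicate 2 at 0 h or replicate 1 at 2 h. At 0 h the levels of the 22 genes lay between -8.36 for *MF(ALPHA)2* and -0.56 for *GPA1*, all below the array median, and all were well above background. The part of haploid cells in these values was not tested. Since each array holds a whole culture, fewer cells with a transcript and less transcript per cell cannot be told apart in any value here.

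The 12 highest rises of the array were nearly all in the meiotic lists, with *SAE3* resting on a 0 h level that 1 of the 2 arrays did not show well above background. Beside *MEI5*, *HOP2*, *NDJ1*, *HOP1*, *SAE3*, *SPO13*, *ECM11*, *DMC1*, *MEK1*, *SUL1*, and *HFM1*, they held *YOL131W*, an open reading frame without a gene name in the files, which had levels of -3.10 and -2.18 at 2 h, against -7.93 and -7.41 at 0 h, and rose by 5.03. The 12 lowest changes were more mixed. Below *SPS100* came *YNR014W* with levels of -4.08 and -4.42 at 2 h, against -0.45 and 0.34 at 0 h, and *YOL014W*, whose change was -4.12. *PDR12* (YPL058C), which pumps weak organic acids out of the cell, had levels of -0.77 and -0.96 at 2 h, against 2.25 and 2.90 at 0 h, and fell with a change of -3.44. *VBA3* and *VBA5*, near-identical transporter genes, changed by -3.65 and -3.43. In WT cells all 24 of these genes changed in the same direction, with a limma adjusted p under 0.05.

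Set against WT cells over all genes, most genes that rose or fell in *ime2Δ* cells also did so in WT cells. Of the 1102 genes that rose in *ime2Δ* cells, 847 also rose in WT cells, which is 76.9% of the *ime2Δ* list and 60.9% of the 1391 that rose in WT (22.2% of all genes). Of the 1382 that fell, 1095 also fell in WT cells, which is 79.2% of the *ime2Δ* list and 64.4% of the 1700 that fell in WT (27.2% of all genes). The 2 h change itself differed between the strains for 208 genes, higher in *ime2Δ* cells for 54 and lower for 154. A gene outside these was not shown to respond alike, since the 95% interval of the difference had a median half-width of 0.67 on the log2 scale. For 504 of the rising and 700 of the falling genes the interval lay within 1 log2 unit of 0 on either side, and of these 429 and 625 passed in the same direction in WT cells. That limit is wide, since the median absolute change of the genes called in *ime2Δ* cells was 0.98. Among changes of at least 4-fold, the interval lay within it for 13 of 89 rising and 25 of 118 falling genes. Of those 89 and 118 genes, 86 and 108 passed in the same direction in WT cells. With the replicate number as a block 362 genes differed, and without 1 array the number was 65 (replicate 1 of *ime2Δ* cells at 0 h), 77 (replicate 2 of WT cells at 2 h), 86 (replicate 1 of *ime2Δ* cells at 2 h), 102 (replicate 1 of WT cells at 0 h), 112 (replicate 2 of WT cells at 0 h), 120 (replicate 2 of *ime2Δ* cells at 2 h), 149 (replicate 1 of WT cells at 2 h), or 246 (replicate 2 of *ime2Δ* cells at 0 h).

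The lowest differences belonged to genes that rose in WT cells alone or fell in *ime2Δ* cells alone. *HTB2*, for histone H2B, *TOS4*, *PLM2*, and *NRM1*, of the G1/S transcription program, and the transporter gene *ATR2* had differences of -4.64, -4.61, -3.73, -3.42, and -4.04. *LDS2* (YOL047C), a gene of spore formation, had a different pattern, with levels of -6.24 and -6.28 at 2 h, against -2.84 and -3.17 at 0 h in *ime2Δ* cells, and of -1.03 and -1.36 at 2 h and -1.37 and -1.43 at 0 h in WT cells. It fell in *ime2Δ* cells with a change of -3.26 and changed by 0.20 in WT cells, and the difference of -3.46 had a limma adjusted p of 2.44e-05. At 0 h its level was lower on both *ime2Δ* arrays than on both WT arrays.

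Among the differences that passed, the highest was that of *THI4*, which makes the thiazole of thiamine and had levels of -2.25 and -2.38 at 2 h, against -1.47 and -1.27 at 0 h in *ime2Δ* cells, and of -2.85 and -2.79 at 2 h and 0.91 and 0.66 at 0 h in WT cells. It fell in both strains, with a change of -0.95 in *ime2Δ* cells, lost without replicate 2 at either time, and of -3.60 in WT cells, and the difference was 2.66 (limma adjusted p = 0.00129). *SEO1* (YAL067C), a putative permease, had levels of 3.62 and 3.81 at 2 h, against 0.90 and 1.07 at 0 h in *ime2Δ* cells, and of 1.62 and 1.36 at 2 h and 0.96 and 0.69 at 0 h in WT cells, and *OPT1*, a transporter for glutathione and oligopeptides, rose by 2.27 in *ime2Δ* cells and changed by 0.11 in WT cells. The differences were 2.07 (limma adjusted p = 0.00562) and 2.17 (limma adjusted p = 0.0442), and that of *OPT1* was lost in 6 of the 8 fits without 1 array (adjusted p between 0.0342 and 0.214), being kept without replicate 2 of *ime2Δ* cells at 0 h or replicate 1 of WT cells at 2 h.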

How the data were processed

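RNA of each time point was hybridized to 1-colour 8x15K yeast arrays, and the authors deposited scanner intensity values from Agilent Feature Extraction 10.7.1.1. The processed signal had its background subtracted within the array, and the deposited log2 values had been normalized by the authors to the median of each array. Here spots with an outlier flag of the scanner (flags of 0 or 1 in the deposited files, used as other values) were left out. The log2 signals of the 2 spots of a probe were averaged, and the array median was subtracted. These values correlated with the authors' log2 values with r of at least 0.9997 on every array, and no spot was saturated. Of 6256 genes, 5756 matched a RefSeq locus tag, and names come from there or from the array files.

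The 8 groups of 2 arrays were fitted in limma 3.58.1 (R 4.3.3) with 1 mean per group, which left 8 residual degrees of freedom. The contrasts were 2 h minus 0 h in each strain and the difference of these contrasts, with Benjamini-Hochberg adjustment over 6254 genes and a threshold of 0.05. This fit held no term for the replicate number, so its standard errors and p-values are unpaired. Each number has its own slide, and same-numbered arrays deviated together (r of 0.446 between *ime2Δ* cells at 2 h and 0 h, and between 0.191 and 0.424 for the other pairs of groups). That pairing was modelled only in the alternative with the replicate number as a block. 

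The 35 gene lists hold 1196 genes, and 1 member each of the break and the axis lists is not reported here. The lists, the groups, and the named-gene rule were chosen with earlier results of these data known, so no list is independent evidence. The rule allowed up to 5 members of each list with the largest changes that passed in the same direction in both replicates, the largest opposite change of a list, the 12 highest and 12 lowest changes, the 8 highest and 8 lowest differences between strains, and every member of the meiotic entry, break, axis, and G1/S lists. Genes named outside it were chosen after their values were seen. After the values were seen, *RPP1* and *CTF19* were taken out of lists to which they do not belong, and *HED1*, *ARG5,6*, and *ADE5,7* matched no probe name. Alternatives were scaling to the 75th percentile or by quantiles, normexp background correction (offset 50, on median spot and background signals), the authors' log2 values, a filter on dim probes, the replicate number as a block, a fit to the compared groups only, a trended robust prior, a minimum log2 change of 1, and each array left out. Those for WT alone were chosen after seeing the data. Promoter sequences were not used here.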

Additional observations from a re-analysis of the deposited data

Results flagged for a closer look

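The gap between the strains, that is the log2 2 h change in *ime2Δ* cells minus that in WT cells, passed limma's test for 29 of the genes named above, where 0.863% of all genes passed with a higher and 2.46% with a lower change in *ime2Δ* cells. Some of the 29 were named because this difference passed, or after their values were seen. Their number can therefore not be compared with the share over all genes. Of the 29 genes, 18 had the lower change in *ime2Δ* cells. The histone genes among them had differences of -4.64 (*HTB2*), -3.02 (*HTA2*), -2.85 (*HHF2*), -2.60 (*HHF1*), and -1.71 (*HHT1*). Genes of the G1/S program and of nucleotide supply had differences of -4.61 (*TOS4*), -3.73 (*PLM2*), -3.42 (*NRM1*), -3.31 (*CLB6*), and -3.18 (*RNR1*). Genes of the break and axis lists had differences of -1.95 (*MSH5*), -1.81 (*MSH4*), -1.55 (*CSM4*), -1.14 (*REC107*), and -1.01 (*MLH3*). The other members were the transporter gene *ATR2* (-4.04) and the spore genes *LDS2* (-3.46) and *SPO77* (-2.83, well above background on 1 of the 2 *ime2Δ* arrays at 2 h).

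The change was higher in *ime2Δ* cells for 11 genes. Transport and sulfur genes had differences of 2.17 (*OPT1*), 2.07 (*SEO1*), 1.95 (*AGP3*), 1.92 (*MET3*), 1.76 (*MET32*), and 1.61 (*MET10*). The other members were *THI4* of thiamine synthesis (2.66), the wall gene *PIR3* (2.24), *DAL3* of allantoin breakdown (1.67), the minor pyruvate decarboxylase *PDC6* (1.48), and *PFK26* (1.31). *PDC6* fell in both strains, with changes of -2.78 in *ime2Δ* cells and -4.26 in WT cells, and its difference was lost in 7 of the 8 fits without 1 array (adjusted p up to 0.198) and was kept without replicate 2 of *ime2Δ* cells at 0 h. Strain, slide column, and the *TRP1* allele cannot be told apart in any of these differences.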

How the results depend on the processing

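With 1 array left out, the lone array of its group was assumed to vary like the others. In *ime2Δ* cells between 1749 and 1886 genes then passed, and 1323 of 2484 passed in all 4 fits; in WT cells 1896 genes passed in all such fits. The differences between strains depended most on single arrays, with between 65 and 246 genes called (12 to 80 with a higher and 53 to 166 with a lower change in *ime2Δ* cells), and 62 of 208 were kept in all 8 fits. With the replicate number as a block, which pairs the arrays of a slide, 362 genes differed (142 higher) and 2898 genes changed in *ime2Δ* cells (1284 higher and 1614 lower). A minimum log2 change of 1 left 1197 genes in *ime2Δ* cells (503 higher and 694 lower) and 1605 in WT cells (713 higher and 892 lower). Scaling to the 75th percentile gave 1803 higher and 895 lower genes in *ime2Δ* cells and 1128 lower genes in WT cells. The causes were not tested. The median change of all genes was 0.19 under the 75th percentile. That of middle and spore genes was -0.11 by quantiles, -0.0319 after normexp, and between -0.0544 and 0.11 with 1 array left out. That of amino acid synthesis was 0.10 by the 75th percentile, 0.12 by quantiles, and between -0.23 and 0.0641 with 1 array left out. With 1 array left out the medians also changed sign for nitrogen catabolite repression (-0.10 to 0.29), mitochondrial ribosomal proteins (-0.0421 to 0.15), and chaperones (-0.16 to 0.25). Among 190 named genes no change that passed with all arrays reversed its sign. Of those that passed, 24 lost their call in at least 1 fit without 1 array. Changes that did not pass could switch sign, as for *CLB6*, whose 0 h levels lay on both sides of its 2 h levels. Of the 29 named differences that passed, 10 lost their call in at least 1 fit without 1 array. Apart from the cases given with the results, the block added the call of *PLM2* in *ime2Δ* cells and changed no other call of a named gene. The 2 arrays per group leave a median standard error of 0.22 for a change and 0.31 for a difference.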
